A study of Mus musculus with 6 samples.

Results

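The Kv2 and Kv3 potassium channel genes Kcnb2, Kcnc1, Kcnc2 and Kcnc4 were chosen by name, from the gene symbols of the count files. All 4 were found among the 32531 named genes of the files, and all 4 were among the 16898 genes with enough reads to be tested. Other genes of these families were not analysed here. The libraries came from the thalamus of adult mice of the Cbln1-TRAP line NIDA030, in which the ribosomal protein Rpl10a carries an EGFP tag under a transgene named for Cbln1, so cells that use the Cbln1 driver carry tagged ribosomes. Translating ribosome affinity purification (TRAP) recovers such ribosomes, and the RNA on them, with anti-EGFP antibodies. There were 3 immunopurified (IP) libraries and 3 Input libraries, all of the same line and all untreated, and the labels give ribosome-bound RNA as the molecule of both kinds. The labels do not say how many animals were used or whether they were pooled, so the spread behind each p-value is that of these libraries alone and may be technical. The file names mention the parafascicular nucleus, which lies in the thalamus, whereas the labels give the thalamus alone.

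Voltage-gated potassium channels open when a neuron depolarises and let potassium out, which ends the action potential. Kv2 channels open and close slowly, sit in clusters on the cell body and proximal dendrites, and shape repetitive firing. Kv3 channels open only at strongly depolarised voltages and close very fast, which lets neurons fire short spikes at high rates, and they are well known from fast-spiking inhibitory neurons, including those of the thalamic reticular nucleus. Kcnb2 encodes Kv2.2, Kcnc1 encodes Kv3.1, Kcnc2 encodes Kv3.2, and Kcnc4 encodes Kv3.4, whose current switches off rapidly because the start of the protein plugs the open pore.

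The coding stretch around the selectivity filter, the part of the pore that lets potassium through, is shown for each gene because all potassium channels share this part, which bears on whether their reads can be told apart. Capitals mark the 18 bases of the 6 filter codons, and the sequences are the coding strand of GENCODE M21 transcripts on mm10, 5′ to 3′.
Kcnb2: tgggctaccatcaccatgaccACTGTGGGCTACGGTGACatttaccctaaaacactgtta
Kcnc1: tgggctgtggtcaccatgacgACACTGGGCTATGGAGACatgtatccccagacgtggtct
Kcnc2: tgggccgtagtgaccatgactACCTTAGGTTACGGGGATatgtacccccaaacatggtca
Kcnc4: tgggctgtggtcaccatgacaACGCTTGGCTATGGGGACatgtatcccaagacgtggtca
Over these 60 bases Kcnc1 and Kcnc2 shared 45 bases, Kcnc1 and Kcnc4 shared 54, and Kcnc2 and Kcnc4 shared 46, while Kcnb2 shared 41 or 42 with each Kv3 gene. Over the aligned coding sequence, Kcnc1 and Kcnc2 were identical at 74.4% of bases, and the longest run that their transcripts shared was 29 bases. The longest shared run of any other pair was between 14 and 29 bases. No stretch of 50 bases from Kcnc2 or Kcnc4 occurred in transcripts of another gene, against 55 of 9401 such stretches for Kcnc1 and 11 of 15113 for Kcnb2.

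The starts of the Kv3 coding sequences are shown because the current of Kv3.4 is switched off by its own start; capitals mark the start codon.
Kcnc1: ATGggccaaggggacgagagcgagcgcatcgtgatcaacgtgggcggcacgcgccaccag
Kcnc2: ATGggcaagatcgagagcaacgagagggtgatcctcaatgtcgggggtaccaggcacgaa
Kcnc4: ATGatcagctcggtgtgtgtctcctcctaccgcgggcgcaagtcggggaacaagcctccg
In mm10, Kcnc1 lies on chromosome 7 at 46396497 to 46438704 on the plus strand, and Kcnc2 on chromosome 10 at 112271121 to 112467024 on the plus strand. Kcnc4 lies on chromosome 3 at 107438303 to 107459552 on the minus strand, and Kcnb2 on chromosome 1 at 15287254 to 15723750 on the plus strand. None of the 4 genes shared an exonic base with another gene of GENCODE M21 on either strand. The counts are per gene and hold every splice form together.

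The pull-down was checked on Cbln1 itself, which was higher in IP (log2 fold change 4.16, SE 0.11, edgeR adjusted p = 9.66e-08). Assigned counts ran from 45256700 to 57385828 in IP and from 23929070 to 47741219 in Input. IP replicate 1 stood apart in ribosomal RNA, with 14.5% of its assigned counts on the precursor Rn45s, against 9.38 and 9.74% in the other IP libraries and 5.21 to 5.40% in Input.

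Of the 4 Kv2 and Kv3 genes, Kcnc2 alone passed the test between IP and Input: its level in IP was 48.4% of that in Input. Kcnc1, Kcnc4 and Kcnb2 did not pass, although the call of Kcnc1 depended on the scaling and the tool. By edgeR's quasi-likelihood test with Benjamini-Hochberg adjustment over all genes, 1 of 4 was lower in IP at an adjusted p under 0.05, where 24.3% of all genes tested were lower. By the same test 0 of 4 were higher, where 23.3% of all genes were. At an unadjusted p under 0.05 the same counts were found (0 higher, 1 lower), and limma-voom also called 0 higher and 1 lower, whereas DESeq2 called 0 higher and 2 lower. The 4 genes had a median log2 fold change of -0.05, beside -0.07 over all genes tested.

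Kcnc2, the Kv3.2 gene, had 5337, 5182 and 3784 reads in IP replicates 1 to 3 and 5148, 11819 and 10875 reads in Input replicates 1 to 3. Scaled to library size by trimmed mean of M-values (TMM), these were 107, 113 and 89.0 CPM (counts relative to library size) in IP and 202, 228 and 208 CPM in Input. Every IP library lay below every Input library. Kcnc2 averaged 103 ± 12.4 CPM in IP, against 212 ± 13.5 CPM in Input (SD over n = 3 libraries a group). The log2 fold change was -1.05 (SE 0.11, edgeR adjusted p = 6.82e-05), or 2.06-fold lower in IP. By the labels, each replicate number is also 1 lane that holds 1 IP and 1 Input library, and the log2 ratio within the lanes was -0.92, -1.01 and -1.22. The call held in each of the 15 other settings run, with log2 fold changes between -1.28 under library totals and -0.94 without IP replicate 3. Its change was not extreme among all genes, since 26.1% of tested genes had a lower log2 fold change. In bulk libraries, fewer cells that use a gene and less of its RNA per cell cannot be told apart.

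**Figure D1:**
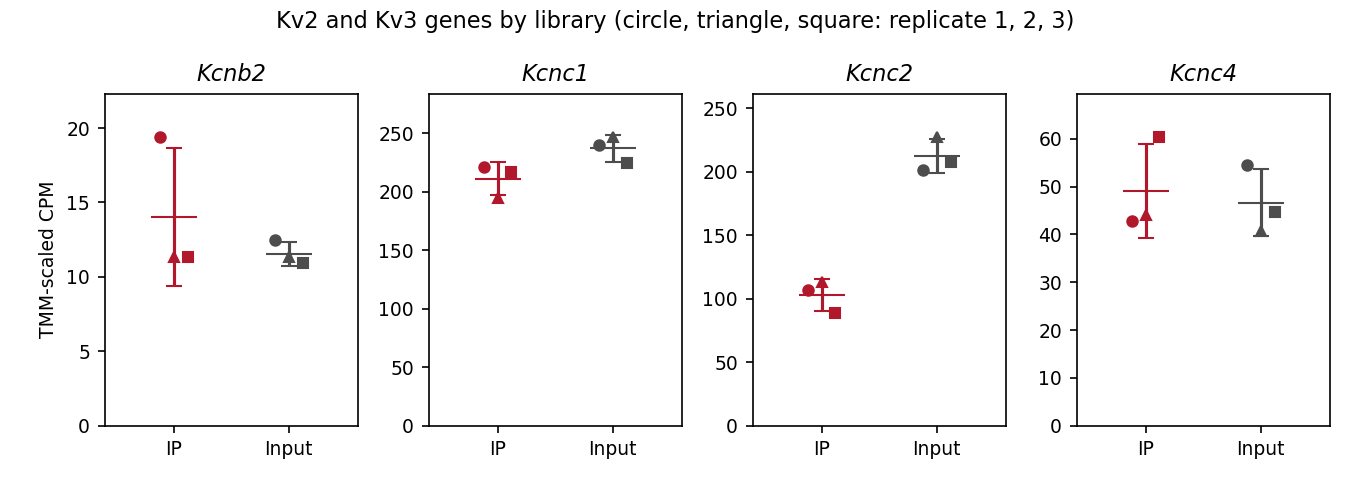
TMM-scaled CPM (vertical axes, starting at 0, a scale for each gene) of Kcnb2, Kcnc1, Kcnc2 and Kcnc4 in IP (red) and Input (grey); points are the 3 replicates of each group, bars the mean and SD. Kcnc2 had 89.0 to 113 CPM in IP and 202 to 228 CPM in Input; the groups of Kcnb2 and Kcnc4 overlapped.

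Kcnc1, the Kv3.1 gene, was the most read of the 4 in both groups. It had 222, 195 and 217 CPM in IP replicates 1 to 3 and 240, 247 and 225 CPM in Input replicates 1 to 3. The groups did not overlap, but the gap between the nearest libraries was narrow. The absence of overlap was common in this comparison, being found for 61.6% of all genes tested and for 2 of the 4 channel genes. Kcnc1 averaged 211 ± 14.2 CPM in IP, against 237 ± 11.5 CPM in Input (SD, n = 3 a group). The log2 fold change of -0.17 (SE 0.08) did not pass the test (edgeR adjusted p = 0.134). Under other scalings it did, with -0.34 under upper-quartile scaling (adjusted p = 0.0106) and -0.41 under library totals (adjusted p = 0.00374). These scalings moved the median of all genes to -0.25 and -0.31, and relative to that median Kcnc1 stood at -0.10 under TMM, upper-quartile and library-total scaling alike. DESeq2 (-0.21, adjusted p = 0.0463) and the stricter filter on low counts (-0.28, adjusted p = 0.0214) also called Kcnc1 lower. Its place relative to the median varied with the filter, which changes the genes behind that median. It was -0.29 under the stricter filter and 0.20 without the filter, where Kcnc1 was not called (edgeR adjusted p = 0.227).

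Kcnc4, the gene of the rapidly inactivating Kv3.4, had 42.8, 44.1 and 60.4 CPM in IP replicates 1 to 3 and 54.5, 40.8 and 44.6 CPM in Input replicates 1 to 3. The groups overlapped, with the highest value in IP replicate 3 and the lowest in Input replicate 2. Kcnc4 averaged 49.1 ± 9.81 CPM in IP, against 46.6 ± 7.04 CPM in Input (SD, n = 3 a group). Its log2 fold change was 0.08 (SE 0.17, edgeR adjusted p = 0.733). The log2 ratio within the lanes was -0.35, 0.11 and 0.44 and so differed in sign. The fitted value was negative under upper-quartile scaling (-0.10), under library totals (-0.16) and without IP replicate 3 (-0.09).

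Kcnb2, the gene of the slow channel Kv2.2, was the least read of the 4, with 970, 521 and 482 reads in IP replicates 1 to 3 and 318, 588 and 570 reads in Input replicates 1 to 3. It had 19.4, 11.4 and 11.3 CPM in IP and 12.5, 11.3 and 10.9 CPM in Input. IP replicate 1, the library with the largest share of ribosomal RNA, was above all others, and the rest lay between 10.9 and 12.5 CPM. Whether that share has a part in the high value was not tested. The log2 fold change was 0.28 (SE 0.24, edgeR adjusted p = 0.364), and without IP replicate 1 it was -0.01 (adjusted p = 0.951).

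**Figure D2:**
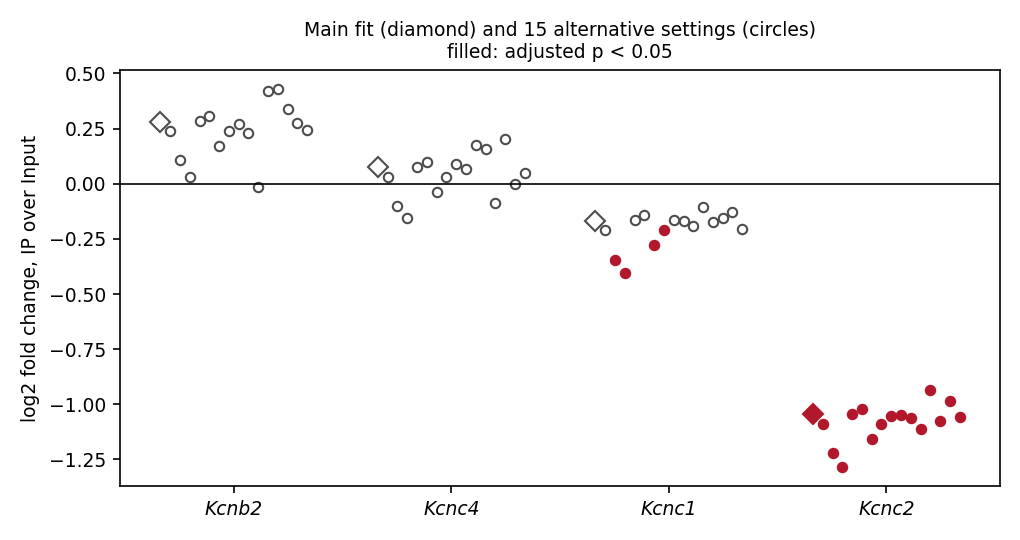
Log2 fold change of IP over Input (vertical axis) for the 4 genes, in the fit as reported (diamond) and in 15 other settings (circles: other scalings, filters and tools, the replicate block, and each library left out); filled red symbols have an adjusted p under 0.05. All values of Kcnc2 were filled and between -1.28 and -0.94; Kcnc1 was filled in 4 other settings, and Kcnb2 and Kcnc4 in none.

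The genes were then compared with each other inside each library, since the ratio of reads between 2 genes does not depend on scaling. There were 2.07, 1.73 and 2.44 reads of Kcnc1 for each read of Kcnc2 in IP replicates 1 to 3, and 1.19, 1.09 and 1.08 in Input replicates 1 to 3. The ratio was thus 1.84-fold higher in IP, with no overlap between the groups. Reads of Kcnc2 for each read of Kcnc4 were 2.50, 2.56 and 1.47 in IP and 3.70, 5.58 and 4.67 in Input, a ratio 2.17-fold lower in IP. Reads of Kcnb2 for each read of Kcnc2 were 0.182, 0.101 and 0.127 in IP and 0.0618, 0.0498 and 0.0524 in Input, a ratio 2.44-fold higher in IP. The exact two-sided permutation p was 0.1 for each of these 3 ratios, the smallest that 3 against 3 libraries allow, and 0.15 after adjustment over the 6 pairs.

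Among the 3 genes other than Kcnc2 the ratios moved less. The ratio of Kcnb2 to Kcnc1 was 1.32-fold higher in IP, at 0.0876, 0.0582 and 0.0522 in IP and 0.0519, 0.0458 and 0.0486 in Input, without overlap (exact permutation p = 0.1, adjusted 0.15). Its log2 difference of 0.40 was 0.18 without IP replicate 1. The ratios of Kcnc1 to Kcnc4 (exact permutation p = 0.5, adjusted 0.6) and of Kcnb2 to Kcnc4 (exact permutation p = 0.8, adjusted 0.8) overlapped between the groups. No pair could pass 0.05 in a design of this size.

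To compare levels between genes, CPM were divided by the exonic length of each gene in GENCODE M21, 15165 bases for Kcnb2, 9458 for Kcnc1, 7138 for Kcnc2 and 3667 for Kcnc4. In IP the order of the levels was Kcnc1, with a mean of 22.3 CPM per kilobase and libraries between 20.6 and 23.4, then Kcnc2 (14.4, libraries 12.5 to 15.8), Kcnc4 (13.4, libraries 11.7 to 16.5) and Kcnb2 (0.926, libraries 0.748 to 1.28). The IP libraries of Kcnc2 and Kcnc4 overlapped on this scale, so these neighbours did not differ beyond their spread. That overlap depended on the length used: by coding length Kcnc2 made up 22.4 to 29.7% and Kcnc4 10.7 to 15.5% of the 4 genes' counts per length in IP, and by the longest transcript 28.1 to 37.1% and 18.6 to 26.2%, without overlap. In Input the order was Kcnc2 (29.8 CPM per kilobase, libraries 28.3 to 31.9), Kcnc1 (25.1, libraries 23.7 to 26.1), Kcnc4 (12.7, libraries 11.1 to 14.8) and Kcnb2 (0.762, libraries 0.719 to 0.821), and no neighbours overlapped.

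As a share of the counts per length of the 4 genes, Kcnc2 made up 29.1, 32.1 and 23.7% in IP replicates 1 to 3 and 40.8, 45.6 and 44.3% in Input replicates 1 to 3. Kcnc1 made up 43.7 ± 1.87% in IP and 36.7 ± 0.645% in Input, Kcnc4 26.1 ± 4.52% in IP and 18.6 ± 2.75% in Input, and Kcnb2 1.81 ± 0.592% in IP and 1.12 ± 0.0614% in Input (SD over n = 3 libraries a group). For each of the 4 shares the groups did not overlap and the exact two-sided permutation p was 0.1, the smallest possible. Shares of one whole are not independent, so a smaller share of Kcnc2 raises the others. Without IP replicate 1 the difference in the share of Kcnb2, IP minus Input, was 0.36 percentage points in place of 0.70. The difference in the share of Kcnc4 was 7.53 percentage points, 4.97 without IP replicate 3, 3.68 by coding length and 3.83 without division by length. The direction of each share held with the longest transcript, with the coding length and without division by length. The order of Kcnc1 and Kcnc2 in Input depended on the length: by coding length the shares in Input were 49.2% for Kcnc1 and 40.2% for Kcnc2.

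**Figure D3:**
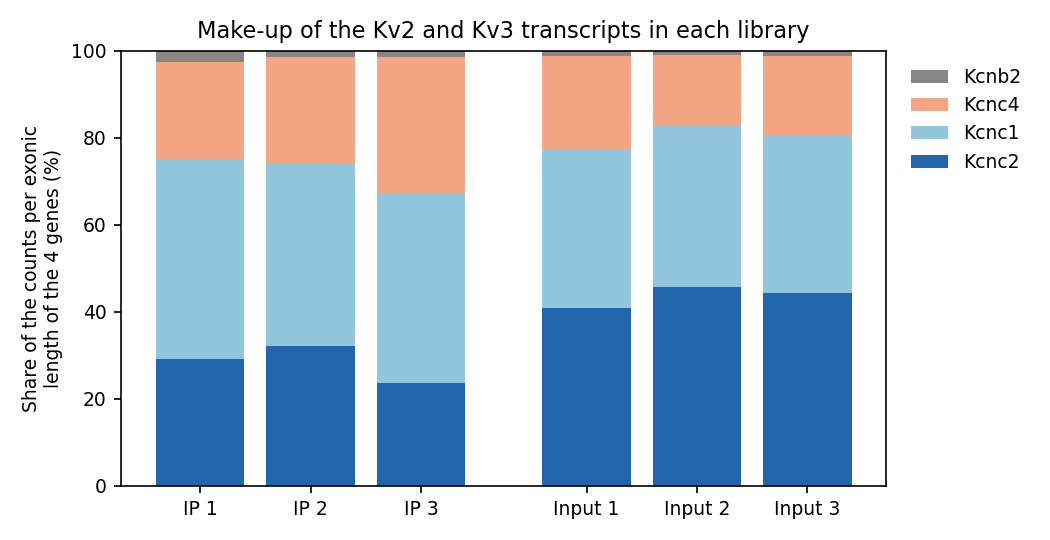
Share (percent, vertical axis) of each gene in the counts per exonic length of Kcnb2, Kcnc1, Kcnc2 and Kcnc4, stacked for each IP library (left) and each Input library (right). Kcnc2 took 23.7 to 32.1% in IP and 40.8 to 45.6% in Input.

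Markers of other cells moved in the same comparison, in which IP was called higher for 23.3% and lower for 24.3% of all tested genes. Of 9 markers of GABAergic neurons, 8 were tested, 6 were lower in IP and 0 higher (0 also at an unadjusted p under 0.05, with DESeq2 and with limma-voom), and their summed level was 114 to 125 CPM in IP and 577 to 828 CPM in Input. The 6 lower ones were Gad1, Gad2, Slc32a1, Six3, Sst and Dlx1, with log2 fold changes between -4.24 and -1.80. Of these, Dlx1 was hardly read in IP (0.360, 0.0436 and 0 CPM, against 1.80, 2.14 and 0.842 CPM in Input). It met the filter on low counts only through Input. Most of the Input sum was Gad2, with a mean of 491 CPM. With limma-voom 7 of the 8 tested GABAergic markers were lower, and with DESeq2 6 of the 8. Ecel1 did not pass with edgeR (log2 fold change -1.94, edgeR adjusted p = 0.133). Nor did Pvalb, a calcium-binding protein of fast-spiking cells (44.0 ± 7.34 CPM in IP, against 49.7 ± 9.50 CPM in Input, SD, n = 3 a group; edgeR adjusted p = 0.428). Of 7 markers of thalamic glutamatergic neurons, 5 were higher and 1 lower (Rora, log2 fold change -0.40). Their sum was 4543 to 5131 CPM in IP and 3103 to 3589 CPM in Input. All 8 astrocyte markers were lower, with a sum of 441 to 456 CPM in IP and 928 to 1071 CPM in Input. Most of that sum was Slc1a2, a glutamate transporter, with a log2 fold change of -0.85. The other 7 astrocyte markers had log2 fold changes between -4.18 and -2.63 and summed to 24.0 to 26.2 CPM in IP and 240.2 to 252 CPM in Input. All 8 oligodendrocyte markers were lower too, with a sum of 308 to 385 CPM in IP and 3541 to 4094 CPM in Input. No GABAergic or glial marker of these 3 lists was at 0 in all IP libraries. The part of these cells in the lower level of Kcnc2 was not tested.

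The Kv2 channels take up silent subunits, members of the Kv5, Kv6, Kv8 and Kv9 families that form no channel alone and alter the gating of Kv2 when built into it. Of 10 silent subunit genes, 9 were tested, of which 2 were called higher in IP, 3 lower and 4 in neither direction, beside 23.3% higher and 24.3% lower of all genes tested. Of the 3 lower ones, Kcng1 was tested only through its Input reads. The median log2 fold change of the 9 was 0.25 beside -0.07 over all genes, and it was -0.73 without IP replicate 2. Kcng2, the Kv6.2 gene, had 18.3, 25.5 and 25.3 CPM in IP and 2.15, 2.62 and 2.37 CPM in Input, so that it was 9.60-fold higher in IP (log2 fold change 3.26, SE 0.22, edgeR adjusted p = 6.75e-06). Kcng3, the Kv6.3 gene, had 14.8, 7.93 and 13.3 CPM in IP and 3.37, 2.52 and 2.33 CPM in Input (log2 fold change 2.14, SE 0.31, edgeR adjusted p = 4.73e-04). Both had every IP library above every Input library, beside 61.6% of all genes tested without overlap in either direction. In GENCODE M21, 272 exonic bases of Kcng2 (9.10%) overlap an unclassified transcript on the opposite strand, and reads of such overlaps cannot be assigned without strand.

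Kcng4 and Kcnf1 were lower in IP. Kcng4, the Kv6.4 gene, had 3.56, 4.05 and 6.87 CPM in IP and 22.5, 23.5 and 28.8 CPM in Input (log2 fold change -2.37, SE 0.27, edgeR adjusted p = 1.16e-04). Kcng1, the Kv6.1 gene, had 2, 2 and 0 reads in IP and 11, 74 and 72 reads in Input, and it was called lower (edgeR adjusted p = 0.00478) although it met the filter on low counts only through Input. Kcnf1, the Kv5.1 gene, fell to 6.08, 12.2 and 10.1 CPM in IP, against 19.0, 23.3 and 17.8 CPM in Input (log2 fold change -1.08, SE 0.26, edgeR adjusted p = 0.00736). Kcng4 and Kcnf1 had every IP library below every Input library, beside 61.6% of all genes tested without overlap in either direction. Kcng1 is left out of this, since it entered the test through Input alone.

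The remaining silent subunits did not pass. Kcns2, the Kv9.2 gene, came closest, with 18.7, 16.5 and 29.0 CPM in IP and 11.4, 15.7 and 15.5 CPM in Input (log2 fold change 0.59, SE 0.24, edgeR adjusted p = 0.0677). The groups of Kcns2 did not overlap. It passed in 4 other settings and not in 11. It passed without the filter on low counts (adjusted p = 0.0469) and with the replicate block (adjusted p = 0.0456). It also passed without IP replicate 1 (adjusted p = 0.0424) and without IP replicate 2 (adjusted p = 0.0257). Its log2 fold change was 0.32 without IP replicate 3, its highest library (adjusted p = 0.204), and 0.35 under library totals (adjusted p = 0.278). Kcns3 (6.37 CPM in IP, 5.33 in Input), Kcnv1 (1.82 CPM in IP, 1.32 in Input) and Kcns1 (1.44 CPM in IP, 1.26 in Input) had adjusted p between 0.568 and 0.894 with edgeR. The value of Kcns1 rested on IP replicate 2, which had 3.68 CPM beside 0.0600 and 0.588 CPM in the other IP libraries. Kcnv2, a Kv8.2 gene known from photoreceptors, was not tested, with 0 reads in each IP library and 24, 21 and 3 in Input.

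**Figure D4:**
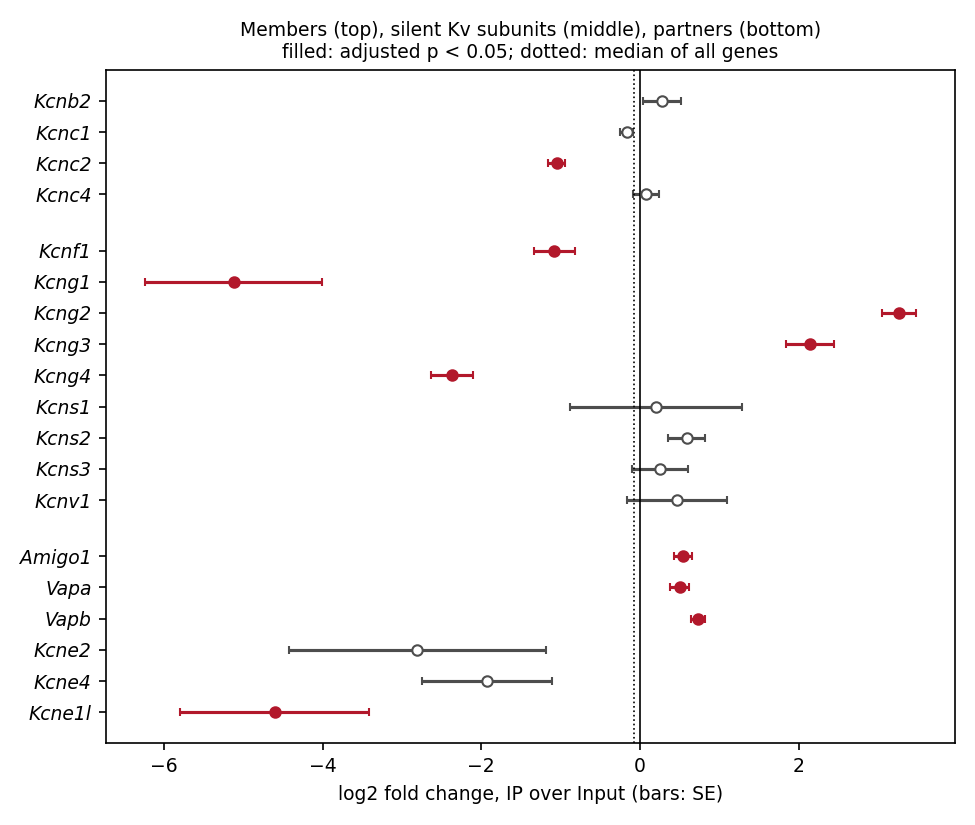
Log2 fold change of IP over Input (horizontal axis, bars are SE) for the Kv2 and Kv3 genes (top), the tested silent Kv subunits (middle) and the tested partner proteins (bottom); filled red points have an adjusted p under 0.05 and the dotted line is the median of all genes, -0.07. Kcng2 and Kcng3 lie at 3.26 and 2.14, and Kcng4 and Kcng1 at -2.37 and -5.12. Kcng1 was tested only through its Input reads.

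Among 8 genes of partner proteins, 6 were tested, of which 3 were called higher in IP, 1 lower and 2 in neither direction, beside 23.3% higher and 24.3% lower of all genes tested. The 1 lower gene was Kcne1l, and the number called lower ran from 0 to 3 over the alternative settings. The median log2 fold change of the 6 was -0.71 beside -0.07 over all genes, and it was 0.43 under a stricter filter of at least 100 counts in at least 3 libraries, which leaves out Kcne2, Kcne4 and Kcne1l. Amigo1, a cell adhesion protein that accompanies Kv2 channels, had 73.4, 73.1 and 83.4 CPM in IP and 48.7, 49.8 and 59.5 CPM in Input (log2 fold change 0.54, SE 0.12, edgeR adjusted p = 0.00438). Vapb, an endoplasmic reticulum protein to which Kv2 clusters tether, averaged 299.9 ± 18.9 CPM in IP, against 181 ± 11.2 CPM in Input (SD, n = 3 a group; log2 fold change 0.73, SE 0.09, edgeR adjusted p = 1.55e-04). Its relative Vapa had 179, 129 and 144 CPM in IP and 103, 107 and 109 CPM in Input (log2 fold change 0.50, SE 0.12, edgeR adjusted p = 0.00795). These 3 genes had every IP library above every Input library, beside 61.6% of all genes tested without overlap. Under library totals Amigo1 (adjusted p = 0.0845) and Vapa (adjusted p = 0.0798) lost their calls, and Vapa also under upper-quartile scaling (adjusted p = 0.0585).

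The KCNE genes encode small single-pass subunits that modify several potassium channels, and they were hardly read. Kcne1 and Kcne3 had 0 reads in every library. Kcne1l was called lower, with 1, 17 and 0 reads in IP and 109, 93 and 191 reads in Input (edgeR adjusted p = 0.0107), and it reached the filter on low counts in 3 Input libraries and 1 IP library. Its log2 fold change of -4.60 was -7.90 without IP replicate 2, and without Input replicate 1 it was not called (adjusted p = 0.0506). Kcne4 (4, 63 and 40 reads in IP, 66, 162 and 177 in Input, edgeR adjusted p = 0.0819) and Kcne2 (0, 0 and 38 reads in IP, 5, 149 and 164 in Input, edgeR adjusted p = 0.183) did not pass with edgeR. Kcne4 passed with DESeq2 (adjusted p = 0.0283) and limma-voom (adjusted p = 0.0165), and Kcne2 with limma-voom (adjusted p = 0.0495). Kcne4 also passed without IP replicate 1 (adjusted p = 0.0270) or IP replicate 2 (adjusted p = 0.0415), but not in 9 other settings. Kcne2 passed without IP replicate 3 (adjusted p = 0.00939). The IP libraries then left held 0 reads, so that call rested on the Input reads alone. In 11 other settings Kcne2 did not pass. Kcne2 reached the filter on low counts in 1 IP and 2 Input libraries, and Kcne4 in 2 IP and 3 Input libraries. The groups of Kcne4 did not overlap. Kcne2 marks choroid plexus, whose 3 listed markers summed to 0 to 44.4 CPM in IP and 4.74 to 555 CPM in Input. Of these markers, Ttr was lowest in replicate 1 of both groups (0 CPM in IP, 2.78 CPM in Input). The part of that tissue in the reads of Kcne2 was not tested.

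The genes whose profiles were most like those of the 4 channels were looked up among 10530 tested genes at a mean level of 5 CPM or more, by the root mean square distance between log2 CPM profiles over the 6 libraries, each centred on its own mean. For Kcnc2 the nearest were Mterf4, Cadm1 and Pik3ip1 (distances 0.0629 to 0.0694), whose log2 fold changes were -1.06, -1.06 and -1.04. For Kcnc1 they were Osbpl6, Ctsf and Cbl (0.0402 to 0.0438), for Kcnc4 Tmem177, 3110082I17Rik and Snrpn (0.0620 to 0.0803), and for Kcnb2 Pigo, Ptp4a1 and Tfg (0.0566 to 0.0650). These distances are a description over 6 libraries in 2 groups.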

How the data were processed

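The authors deposited whole-number counts of reads by gene symbol, in 1 file per library. STAR 2.0.0e, the build mm10 and HTSeq are named in the submitters' processing notes; the annotation, strand setting and read length are not given in the sources used here. Lines that name no gene entered neither library sizes nor tests; as shares of all lines, reads not uniquely aligned made up 43.2 to 49.7% in IP and 32.7 to 34.0% in Input. Counts of 16898 genes that passed filterByExpr (minimum count 10) were scaled by TMM and tested in R 4.3.3 with edgeR 4.0.16 (robust quasi-likelihood F-test, Benjamini-Hochberg adjustment over all genes, threshold 0.05). The fit was first run on simulated counts with 200 changed genes and the spread of the Input libraries. These data held many more calls and noisier IP libraries, so that run does not vouch for the calls made here. SE were derived from the F statistic. DESeq2 1.42.0 and limma 3.58.1 were alternatives. Ratios and shares were compared by exact permutation tests over libraries. The channel genes, the lists, the tests and the rule for named genes (all members and list genes, and 3 nearest genes for each channel gene) were chosen with earlier results of these data known. Lengths, positions and sequences came from GENCODE M21. Each pair of replicates differed beyond sampling noise (chi-square per degree of freedom 12.3 to 141).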

Additional observations from a re-analysis of the deposited data

How the results depend on the processing

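Over all genes, 3930 were higher and 4100 lower in IP, and 2458 were higher under library totals. Of all calls, 48.9% were higher under TMM, 36.7% under upper-quartile scaling and 31.9% under library totals. Leaving out 1 library gave 3076 to 4392 higher and 3017 to 5066 lower.

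Kcnc2 kept its call in all 15 alternatives (without 1 library, -1.11 to -0.94). Kcnc1 passed under upper-quartile scaling (-0.34), library totals (-0.41), the stricter filter of at least 100 counts in at least 3 libraries (-0.28) and DESeq2 (-0.21), and ranged from -0.20 to -0.11 without 1 library. Kcnc4 turned negative under upper-quartile scaling (-0.10), library totals (-0.16), the stricter filter (-0.037), without IP replicate 3 (-0.085) and without Input replicate 2 (-0.0029), with a range of -0.085 to 0.20 without 1 library. Kcnb2 was -0.014 without IP replicate 1, with a range to 0.43 without 1 library. The log2 ratio of Kcnb2 to Kcnc4 was 0.17 higher in IP and -0.18 without IP replicate 1 (range -0.18 to 0.45); the other ratios and all shares kept their direction. Causes were not tested.

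Same-numbered libraries deviated from their group means with correlations of only 0.01 to 0.06 over all genes tested, so the main fit did not pair them. Single genes can still follow the number. The choroid plexus marker Ttr had 0 CPM in IP replicate 1 and 2.78 CPM in Input replicate 1. In replicates 2 and 3 it had 40.6 and 35.1 CPM in IP and 477 and 542 CPM in Input. Whether same-numbered libraries came from the same tissue was not tested. With the replicate block 3793 genes were higher and 4038 lower, Kcnc2 was at -1.05 (adjusted p = 8.29e-06), and no call of the 4 channel genes changed; Kcns2 was called higher with it (0.56, adjusted p = 0.0456). IP replicates 1 and 2 correlated best with the Input library of their own number (0.06 and 0.04). IP replicate 3 correlated best with Input replicate 2 (0.02, against 0.01 with Input replicate 3). Each Input replicate correlated best with the IP library of its own number.

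In the lists, Kcns1 was negative with limma-voom (-1.27), with the block (-1.08) and without IP replicate 2 (-1.95, range to 0.78), and Kcns3 without IP replicate 2 (-0.15, range to 0.47). The silent subunit median ran from -0.73 (without IP replicate 2) to 0.37. Partner genes counted 1 higher under library totals; lower ones were 0 under the stricter filter, 2 with DESeq2, 3 with limma-voom and 3 with the block, and 0 (without Input replicate 1) to 2 without 1 library. Their median was -0.89 under upper-quartile scaling, -0.94 under library totals, 0.43 under the stricter filter, -1.12 with limma-voom, -0.98 with the block, and -0.82 to -0.50 without 1 library. The stricter filter leaves out Kcne2, Kcne4 and Kcne1l. With the block Kcne4 passed as lower (adjusted p = 0.0394), and so did Kcne2 (adjusted p = 0.0322).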
